A study of Homo sapiens with 8 samples.

Results

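Polypyrimidine tract binding protein (PTB) regulates splicing and favours RNA rich in pyrimidines. Crosslinking and immunoprecipitation (CLIP) freezes such contacts in living cells with ultraviolet light, recovers the protein with its RNA, and reads the RNA as peaks along the genome. The sites described here are the places where PTB crosslinked with UVC gave a peak and a control gave one too. They were found by merging the PTB UVC peaks that lay within 20 nt of each other on 1 strand, and keeping each merged site that shared at least 1 nt on that strand with a peak of either control list. The sites were thus chosen by measured values, the positions of peaks in the PTB UVC list and in the control lists, and their overlap with the controls is a description and no finding. The rule kept 631 of 80531 PTB UVC sites, or 0.784% of them (exact 95% interval 0.724 to 0.847), and left 79900 on no control peak.

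The study used a gel-free CLIP protocol, GoldCLIP, in 293T cells, a human embryonic kidney line, that carried a transgene for a Halo-tagged protein under puromycin. The 8 samples formed 4 groups of 2: Halo-PTB cells given UVC, Halo-PTB cells given UVA, Halo-PTB cells given no UV, and Halo-YFP cells given UVC. The labels do not say whether either line is 1 clone, how strongly the transgene was expressed beside the cells' own PTB, or whether a photoreactive nucleoside, which UVA crosslinking commonly relies on, was added. The peaks of each group come as a single pooled list. Beside them stands a list of PTB peaks from iCLIP, an older assay that purifies complexes on a gel, which the submitters made again from data of an earlier study.

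As background, the controls ask different things. RNA recovered without UV reached the beads with the Halo-PTB sample but without a light-induced bond. RNA recovered with Halo-YFP under UVC came down with a tagged protein that has no known RNA targets. Abundant and stable RNAs are known to recur in such controls. A PTB UVC site on a control peak is therefore a position where a peak in the PTB list does not by itself point to PTB, although nothing keeps a real PTB site from lying there as well. The UVA and iCLIP lists, which the choice of sites did not use, show how many of the sites were also found by other PTB experiments.

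Every group is a single pooled list, so there is no spread between replicates and no test between conditions. The lists give no read numbers, and sequencing depth is unknown. Intervals here are exact (Clopper-Pearson) for shares and normal for differences, and they cover counting error only and treat sites as independent. The deposited score of a peak belongs to the authors' peak calling, rises as the peak's p-value falls, and stops at 1000. A merged site was given the highest score among its peaks. Positions are in hg19 and were given no gene name or RNA class, since no hg19 annotation was used here.

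The 631 sites fell into 3 sets. There were 66 on both controls (10.5% of the 631), 351 on the list without UV only (55.6%) and 214 on the YFP list only (33.9%). The overlaps were mostly wide: control peaks covered a median of 75.4% of a site, and 155 sites (24.6%) were covered in full. At the edge of the rule, 57 sites shared 1 to 10 nt with a control peak and had a median score of 28, and 43 sites that touched or lay within 10 nt of a control peak without sharing a base had a median score of 31.

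The sites on control peaks were strong peaks of the PTB UVC list. Their median score was 74, with quartiles of 27 and 260.5, against 21 for the other sites, with quartiles of 16 and 29. Scores above 100 were reached by 271 of the 631 sites (42.9%, interval 39.0 to 46.9), against 1166 of the other sites (1.46%), and by 1.78% of all PTB UVC sites. The ranges overlapped fully, since both groups ran from 13 to 1000.

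The sets differed in strength among themselves. The 66 sites on both controls had a median score of 1000, the limit, and a lowest score of 36. A single site of the 66 scored below 100. The sites on the list without UV only had a median of 59, and those on the YFP list only a median of 63. Scores above 100 were reached by 119 of the 351 sites on the list without UV only (33.9%) and by 87 of the 214 on the YFP list only (40.7%), a difference of -6.75 percentage points whose interval held 0 (-15.0 to 1.49).

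Read by score, a control peak lay under 0.248% of the PTB UVC sites scoring 16 or less, 2.44% of those scoring 51 to 100 and 26.5% of those scoring 201 to 500. It was 55.6% between 501 and 999 (40 of 72 sites, interval 43.4 to 67.3). At the limit it was 86.7%, or 52 of 60 sites (interval 75.4 to 94.1), where 0.0745% of all PTB UVC sites lie. Of those 52 sites, 37 lay on both controls, 11 on the list without UV only and 4 on the YFP list only. Among the 100 PTB UVC sites with the highest scores 74 lay on a control peak, and among the top 1000 it was 244.

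**Figure D1:**
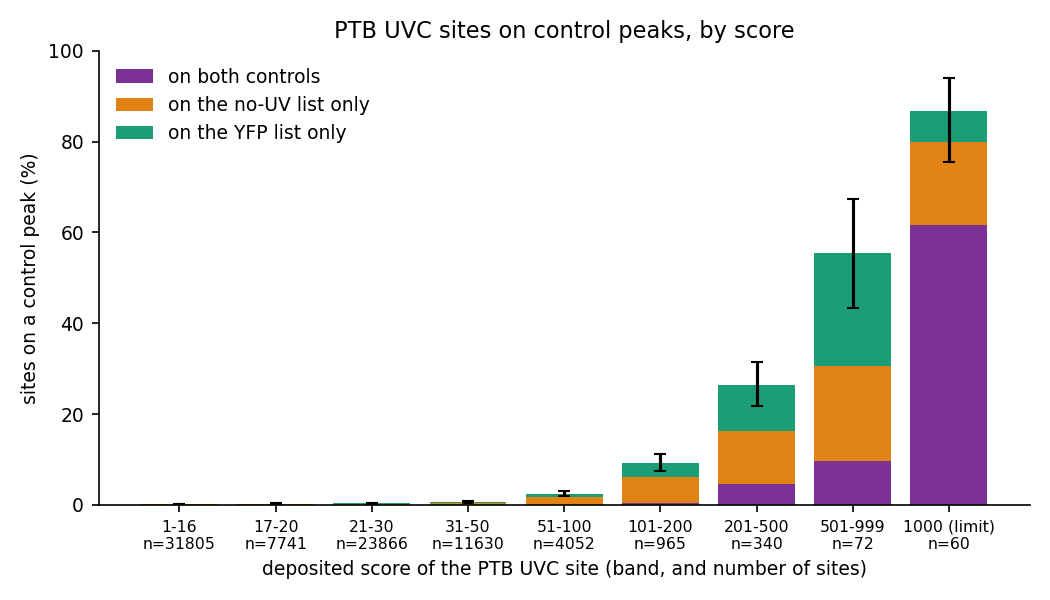
Share of PTB UVC sites that lie on a control peak (y axis, percent, starting at 0) in bands of the deposited score (x axis, with the number of sites in each band), split by control, with exact 95% intervals for the total. The share is 0.248% in the lowest band and 86.7% at the score limit of 1000, where 37 of 60 sites lie on both controls. Peaks deposited with a p-value and a score of 0 count as 1000.

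The 8 sites at the limit on no control peak were few enough to name, a choice made after their values were seen. Of these, 6 lay on a UVA peak and 5 on an iCLIP peak. The widest was chrX:107964682-107964893 (minus strand, 212 nt), which scored 1000 in the UVC, UVA and iCLIP lists alike. The site chr11:65200952-65201058 (plus, 107 nt) scored 759 in UVA and 472 in iCLIP. At chr10:88649357-88649401 (plus, 45 nt) neither the UVA nor the iCLIP list had a peak. The remaining 5 were chr17:37360869-37360972 (plus), chr22:36234309-36234364 (minus), chr4:20308808-20308870 (plus), chr1:45196770-45196818 (minus) and chrX:118557775-118557827 (plus).

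The sites on control peaks were also wider. Their median width was 56 nt against 49 nt for the other sites, and 116 (18.4%) were wider than 100 nt against 1156 (1.45%). The rule asks for 1 shared nt, which a wider site meets more easily, and its part in this difference was not tested. More than 1 deposited peak was merged at 47.5% of them (interval 43.6 to 51.5), against 43.6% of the other sites. The sets differed in this: it was 61 of the 66 sites on both controls (92.4%), whose median width was 90 nt, 35.6% of those on the list without UV only and 53.3% of those on the YFP list only. Another PTB UVC site lay within 200 nt of 218 of the 631 sites (34.5%, interval 30.8 to 38.4), against 14.9% of the other sites. Among the sets on control peaks, neighbours were least common for sites on both controls, where 12 of 66 had one (18.2%). On a single control 206 of the 565 sites had one (36.5%), a difference of -18.3 points (interval -28.4 to -8.16). The gap in neighbours lay at lower scores. Up to a score of 100 a neighbour lay within 200 nt of 37.5% of the sites on control peaks, against 14.7% of the others, a difference of 22.8 points (interval 17.8 to 27.9). Above 100 the shares were 30.6% and 31.4%, a difference of -0.762 points (interval -6.86 to 5.34). Median widths above 100 were 90 nt for sites on control peaks and 69 nt for the others.

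The sites on control peaks were found in the UVA list more often than other PTB UVC sites. A UVA peak overlapped 332 of the 631 (52.6%, interval 48.6 to 56.6), against 8728 of the other sites (10.9%) and 11.3% of all PTB UVC sites, a difference of 41.7 points (interval 37.8 to 45.6). An iCLIP peak overlapped 135 of the 631 (21.4%, interval 18.3 to 24.8), against 4899 of the other sites (6.13%) and 6.25% of all, a difference of 15.3 points (interval 12.1 to 18.5). Both lists had a peak at 120 sites (19.0%), the UVA list alone at 212 (33.6%), the iCLIP list alone at 15 (2.38%) and neither at 284 (45.01%). Among the other sites 86.4% were in neither.

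Among the other sites, strong ones were shared more often than weak ones. The comparison was therefore repeated with the other sites weighted to the same spread over score bands. On that footing the UVA share stayed higher, at 52.6% for sites on control peaks against 38.5% for the others, a difference of 14.1 points (interval 9.37 to 18.9). The iCLIP share did not: it was 21.4% against 21.6%, a difference of -0.156 points (interval -4.63 to 4.32). With the others weighted by score and width together, which could use 623 of the 631 sites, the differences were 10.6 points for UVA (interval 6.28 to 15.0) and -1.82 points for iCLIP (interval -6.14 to 2.49). At like scores, a PTB UVC site on a control peak was thus more often on a UVA peak, while the interval of the iCLIP difference held 0. Without weighting, the UVA gap above a score of 100 differed with merging. It was 18.9 points over merged sites (interval 13.1 to 24.8) and 1.20 points over single peaks (interval -3.32 to 5.71). Scores within that range were not alike. Its bands, from 101 to 200 up to the limit, gave 18.3, 1.64, -10.6 and 9.62 points over merged sites.

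The bands show where the UVA difference lay. Between scores of 51 and 100 a UVA peak overlapped 55.6% of the 99 sites on control peaks, against 30.8% of the other sites, a difference of 24.7 points (interval 14.9 to 34.6). Between 101 and 200 the shares were 68.5% and 50.2% (difference 18.3 points, interval 8.11 to 28.5). Between 201 and 500 they were 74.4% and 72.8%, with an interval of -8.92 to 12.2. The gap in the UVA share was thus seen at low and middle scores, and in each band above 200 its interval held 0.

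For iCLIP a difference was seen at low scores. At scores up to 100 an iCLIP peak overlapped 59 of 360 sites on control peaks (16.4%) against 5.80% of the other sites, a difference of 10.6 points (interval 6.76 to 14.4). This was not weighted for score, and each band within the range gave a smaller difference. From the lowest band up these were 4.93, 7.86, 9.75, 6.20 and 9.57 points. The interval lay above 0 only at 21 to 30 and at 51 to 100. Above 100 the shares were 28.0% (76 of 271) and 28.5% (332 of 1166), a difference of -0.429 points (interval -6.37 to 5.51). Scores within that range were not alike: 89 of the 271 and 876 of the 1166 scored 101 to 200. Its bands, from 101 to 200 up to the limit, gave -5.23, -6, -23.75 and -18.3 points. The interval held 0 in each of these bands except 501 to 999. Over the whole range above 100, unweighted, the interval held 0 in all 11 alternatives, and the difference was above 0 in 6 of them. The change between the ranges up to and above 100 was -11.0 points (interval -18.1 to -3.95), also without weighting for score. The widest single gap was between 501 and 999, where 8 of 40 sites on control peaks (20%) and 14 of 32 others (43.8%) lay on an iCLIP peak, with an interval of the difference of -44.9 to -2.56. That band was picked after all bands had been seen.

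**Figure D2:**
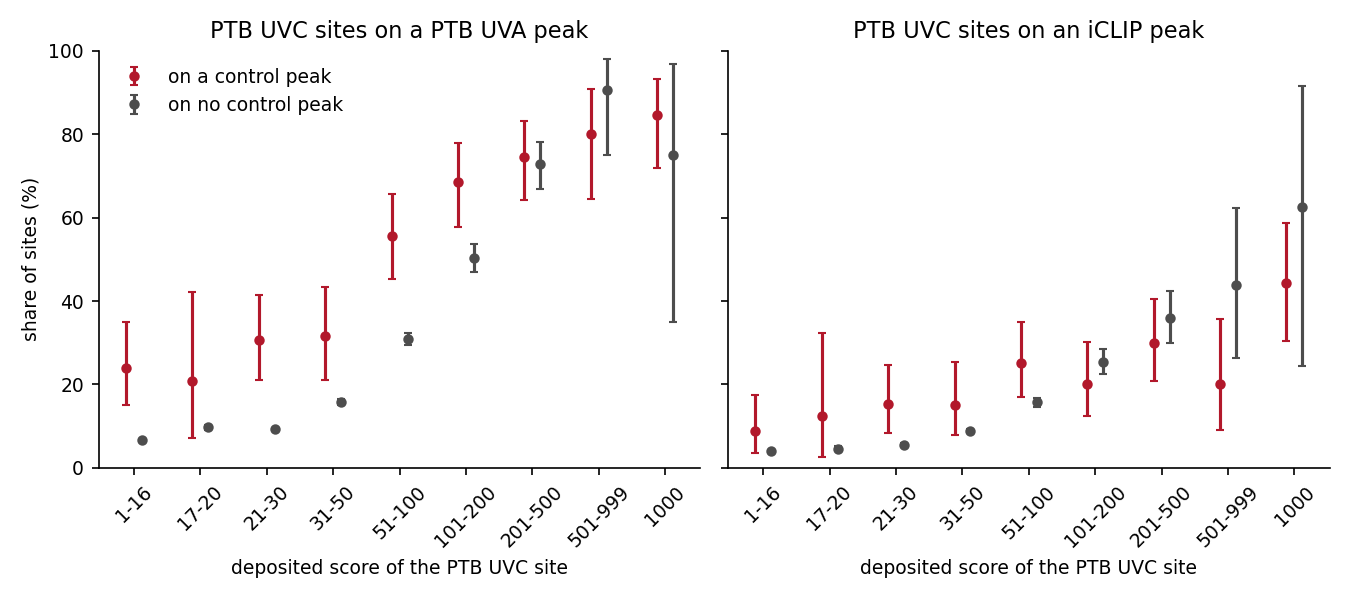
Share of PTB UVC sites overlapping a PTB UVA peak (left) or an iCLIP peak (right), in percent, by band of the UVC score, for sites on a control peak (red) and on no control peak (grey), with exact 95% intervals. The red points lie above the grey in the UVA panel in each band up to a score of 500, and in the iCLIP panel they lie above the grey up to 100 and below it in the bands above.

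The controls picked out sites with different company in the other PTB lists. A UVA peak overlapped 50 of the 66 sites on both controls (75.8%), 183 of the 351 on the list without UV only (52.1%) and 99 of the 214 on the YFP list only (46.3%). An iCLIP peak overlapped 26 (39.4%), 58 (16.5%) and 51 (23.8%) of them. Between the single-control sets the iCLIP difference was -7.31 points, list without UV only minus YFP list only (interval -14.2 to -0.402), and the UVA difference was 5.88 points (interval -2.61 to 14.4). This iCLIP difference was not stable: its interval held 0 in 5 of 9 alternatives, and over single peaks it was -0.884 points (interval -5.95 to 4.18).

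The split in iCLIP was wider among sites that were on a UVA peak to begin with. Of the 183 such sites on the list without UV only, 50 were also on an iCLIP peak (27.3%), against 45 of the 99 on the YFP list only (45.5%), a difference of -18.1 points (interval -29.9 to -6.39). With only the control peaks at or above their list's median score it was -5.16 points, and the interval held 0 (-18.1 to 7.75). Against other PTB UVC sites weighted to the same scores, the UVA share of the sites without UV only was 52.1% against 32.8% (difference 19.4 points, interval 13.98 to 24.8). For the YFP list only it was 46.3% against 37.1% (difference 9.13 points, interval 2.29 to 15.97). For sites on both controls it was 75.8% against 73.4%, with an interval of -17.4 to 22.2. The sites of the list without UV thus exceeded their score-weighted counterparts in the UVA list by the widest margin, although the difference between the margins was not itself tested.

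The UVA peaks at these sites also differed in strength. Among sites scoring above 100 in UVC, the overlapping UVA peak had a median score of 620 at the 99 sites on the list without UV only and 70 at the 55 on the YFP list only, against 488 at the 657 other sites. At the 50 sites on both controls the median was 1000, and 29 of them (58.0%) reached the limit. Over all UVC scores, UVA peaks covered a median of 81.2% of the sites on the list without UV only, 46.9% of those on the YFP list only and 49.6% of those on both. Where strong sites on the YFP list only met a UVA peak, its median score was thus low. Even so, 11 of these 55 peaks (20%) reached the limit, against 26.9% at the other sites. At UVC scores up to 100 the UVA median was not lower, at 196.5 on the YFP list only and 177 at the other sites. For iCLIP peaks at sites scoring above 100 in UVC the medians were 69 (both), 88.5 (without UV only) and 37 (YFP only), against 146.5 at other sites.

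The scores in the control lists, which come from the overlap that chose the sites, are given as a description. The overlapping peak without UV had a median score of 22 over 417 sites, with a range of 13 to 881, and none reached the limit. The overlapping YFP peak had a median of 32 over 280 sites, with a range of 14 to 1000, and 17 reached the limit. Across sites the UVC score went with the YFP score (Spearman's rho 0.586 over 280 sites) more than with the score without UV (rho 0.255 over 417 sites). At the 66 sites on both controls the YFP peak scored higher at 52 and the peak without UV at 14, with medians of 160 and 31. The depths of the lists differ by an unknown amount, so the scores of these lists are not on 1 scale.

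Single sites show these patterns. The widest of the sites at the limit on both controls was chrX:73047086-73047434 (minus strand, 349 nt), which scored 1000 in UVC, UVA and iCLIP, against 280 without UV and 95 in YFP. UVA and iCLIP peaks covered all 349 nt of it, and the controls 177 and 195 nt. A pair of plus-strand sites lay about 1 kb apart. The first, chr1:28833877-28834071 (195 nt), merged 37 UVC peaks and scored 1000 in UVC, 1000 in UVA and 51 in iCLIP, against 403 without UV and 1000 in YFP. The second, chr1:28835070-28835253 (184 nt), merged 34 UVC peaks and scored 1000 in UVC, 1000 in UVA and 17 in iCLIP, against 303 without UV and 1000 in YFP. At the chrX site the PTB lists were at the limit and the controls were not. Its control scores of 280 and 95 were above the medians of 22 without UV and 32 in YFP over sites on each list. At the chr1 pair the YFP list was at the limit as well and the iCLIP peak was weak.

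The other 2 of the widest 5 of the 37 sites at the limit on both controls had low control scores. The site chr3:160232726-160232902 (minus, 177 nt) scored 1000 in UVC and 70 in UVA with no iCLIP peak, against 23 without UV and 15 in YFP. The site chrX:73059026-73059159 (minus, 134 nt) scored 1000 in UVC, UVA and iCLIP, against 21 without UV and 26 in YFP. A low control score thus sat under each of these.

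On the list without UV only, 11 sites were at the limit, and the widest 5 of them all lay on a UVA peak. At chr19:12841462-12841605 (minus, 144 nt) the scores were 1000 in UVC, 1000 in UVA and 583 in iCLIP, against 33 without UV. At chr12:50850446-50850547 (plus, 102 nt) they were 1000 in UVC, UVA and iCLIP, against 48 without UV. The sites chr12:49521567-49521683 (minus, 117 nt) and chrX:73064661-73064823 (minus, 163 nt) scored 1000 in UVC and UVA and had no iCLIP peak, against 28 and 37 without UV. The fifth, chr14:103986006-103986082 (minus, 77 nt), scored 1000 in UVC and 174 in UVA, against 14 without UV. The other 6 at the limit, named after their values were seen, were mixed. The site chr12:63244609-63244653 (minus, 45 nt) had no UVA or iCLIP peak, against a score of 321 without UV, and that control peak covered all of it. The UVA score was 21 at chr6:36607372-36607420 (minus), 84 at chr6:13214287-13214361 (plus), 497 at chrX:118920472-118920527 (minus), 869 at chr12:54678582-54678655 (plus) and 1000 at chr5:140090870-140090917 (plus), against 18, 31, 30, 30 and 18 without UV. So sites at the limit on this list ranged from the top of the UVA list to absent from it.

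On the YFP list only, the strongest sites had weak or no UVA peaks. The site chr12:7076539-7076679 (minus, 141 nt) scored 1000 in UVC with no UVA or iCLIP peak, against 128 in YFP, and the YFP peak covered all of it. The site chr20:2635727-2635809 (plus, 83 nt) scored 1000 in UVC and 42 in UVA, against 1000 in YFP. The sites chr20:37055984-37056088 (minus, 105 nt) and chr1:28906928-28907025 (minus, 98 nt) scored 1000 in UVC and 57 and 189 in UVA, against 280 and 87 in YFP. The fifth, chr17:7481272-7481382 (plus, 111 nt), scored 977 in UVC, 46 in UVA and 26 in iCLIP, against 252 in YFP. None of these 5 had a UVA score above 189, and only the last had an iCLIP peak.

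In all, 25 sites were present in both controls and all 3 PTB lists. Beside those already named, the widest included chr14:20811261-20811397 (minus, 137 nt), with scores of 476 in UVC, 1000 in UVA and 29 in iCLIP, against 26 without UV and 970 in YFP. The site chr3:186504464-186504588 (plus, 125 nt) had 932 in UVC, 74 in UVA and 42 in iCLIP, against 74 without UV and 1000 in YFP. At chr11:62609133-62609248 (minus, 116 nt) the scores were 1000 in UVC, UVA and iCLIP, against 277 without UV and 1000 in YFP. The last was at or near the top of every list. The others of the widest 10 were chr1:26227061-26227182 (minus), chr17:8076794-8076907 (minus) and chr1:45285560-45285671 (minus), which scored 572, 1000 and 1000 in UVC and 1000 in UVA at each, against 23, 22 and 97 without UV and 16, 71 and 158 in YFP.

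The ends of the sites show how closely the lists marked the same stretch of RNA. Read 5′ to 3′, the YFP site began within 2 nt of the UVC site's 5′ end at 76 of 280 sites (27.1%, interval 22.02 to 32.8), and the site without UV at 73 of 417 (17.5%, interval 13.98 to 21.5). For the sites on both controls these were 29 and 24 of 66 (43.9% and 36.4%). A UVA site began within 2 nt at 33 of 332 sites on control peaks (9.94%), against 7.33% of the 8728 other sites on a UVA peak. An iCLIP site began within 2 nt at 13 of 135 sites on control peaks (9.63%), against 6.16% of the 4899 other sites on an iCLIP peak. The shares were higher with the controls, but overlap with the controls chose the sites, so this is a description and no finding.

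The 3′ ends did not match in the same way. The YFP site ended a median of 29 nt past the UVC site and reached past its 3′ end in 218 of 280 cases (77.9%), and 3′ ends lay within 2 nt at 6 sites (2.14%). The site without UV ended a median of 7 nt short and reached past the 3′ end in 137 of 417 cases (32.9%). YFP sites were wider over the whole list, with a median of 87 nt against 49 nt in UVC and 50 nt without UV. The part of this width in the reach past the 3′ end was not tested.

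**Figure D3:**
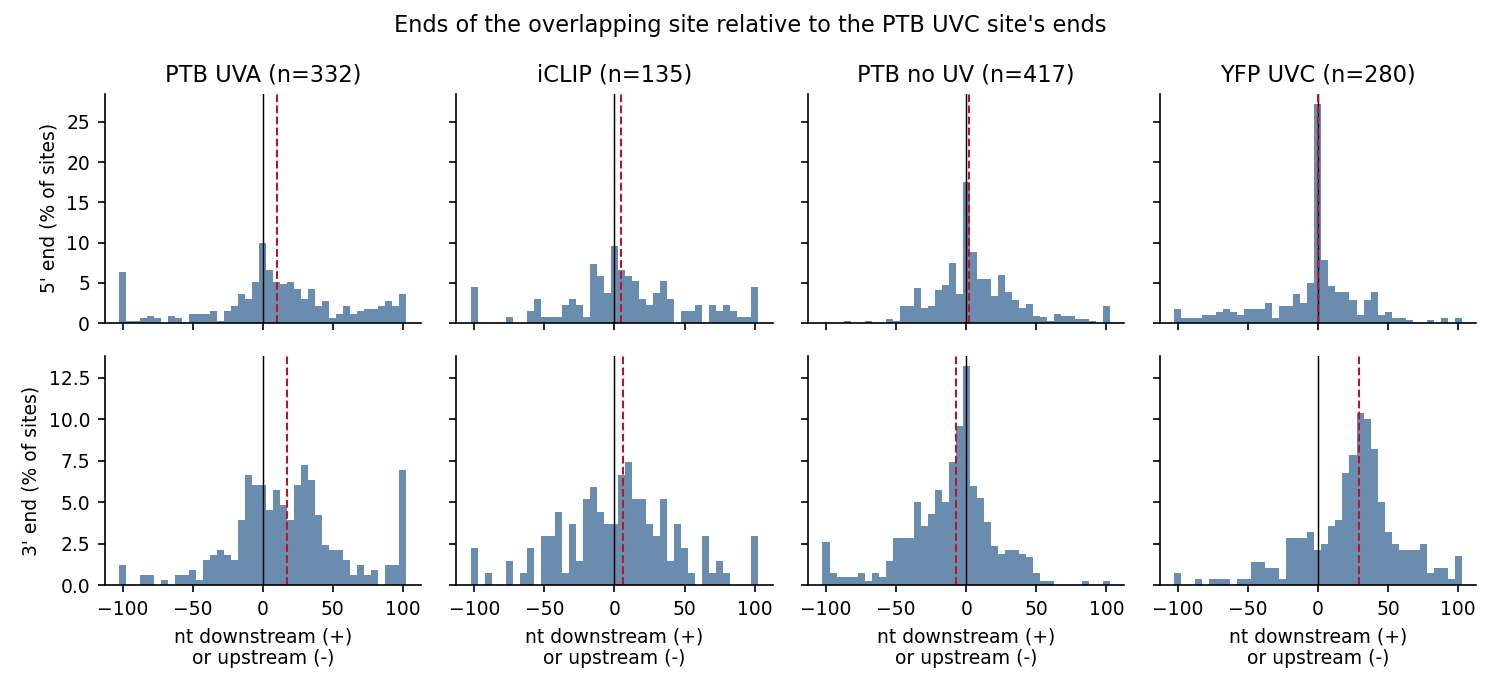
Position of the 5′ end (top) and 3′ end (bottom) of the overlapping site in the UVA, iCLIP, no-UV and YFP lists relative to the same end of the PTB UVC site on a control peak, in nt (x axis, positive is downstream, values beyond 100 nt gathered in the outermost bins) as percent of sites (y axis), with the median as a dashed line. The YFP 5′ ends pile up at 0, with 27.1% within 2 nt, while the YFP 3′ ends centre 29 nt downstream.

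PTB UVC sites near a control peak, but not on one, resembled those on one in part. A UVA peak overlapped 47.1% of the 85 sites within 20 nt of a control peak, 41.4% of the 116 at 21 to 50 nt, 32.9% of the 432 at 51 to 200 nt and 27.3% of the 1355 at 201 to 1000 nt. It was 10.4% of the 77910 sites farther off. For iCLIP the shares were 30.6%, 14.7%, 12.3%, 11.1% and 5.97%. The shares thus fell with distance, and sites up to 1 kb from a control peak still exceeded the distant ones.

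A fall with distance was also seen among the other sites at low scores. Among sites scoring up to 30, a UVA peak overlapped 26.6% of the 188 on a control peak, 39.1% of the 46 within 20 nt, 29.6% of the 54 at 21 to 50 nt, 17.6% of the 256 at 51 to 200 nt and 7.74% of the 62003 beyond 1000 nt. So at low scores the sites on a control peak had a lower UVA share than those just beside one, with overlapping intervals (20.4 to 33.5% and 25.1 to 54.6%). Their iCLIP share was lower too, at 12.2% (interval 7.92 to 17.8) against 30.4% within 20 nt (interval 17.7 to 45.8). Median scores of the other sites were 28, 33, 26, 23 and 21 from the nearest class to the farthest, and the part of score and RNA abundance in the trend was not tested.

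**Figure D4:**
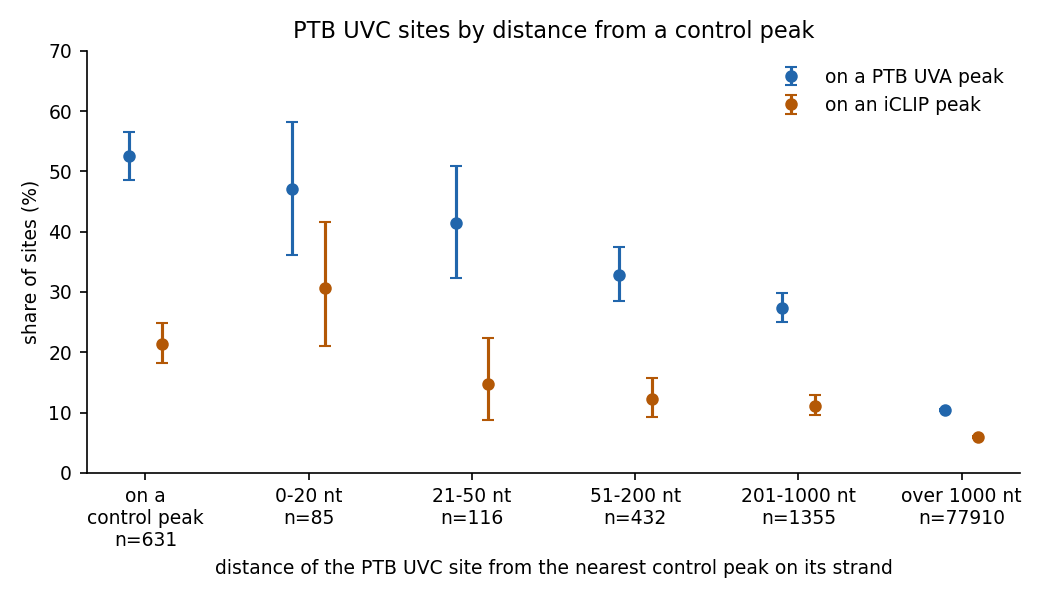
Share of PTB UVC sites overlapping a UVA or an iCLIP peak (y axis, percent) for sites on a control peak and for other sites by distance from the nearest control peak on their strand (x axis, nt, with numbers of sites), with exact 95% intervals. The UVA share falls from 52.6% on a control peak to 10.4% beyond 1000 nt.

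Seen from the controls, 415 of the 2341 sites without UV (17.7%) and 270 of the 1080 YFP sites (25%) carried a PTB UVC peak. Those with a UVC peak were far more often also on a UVA peak: 51.1% against 6.65% of those without one in the list without UV, and 59.3% against 8.77% in the YFP list. In the YFP list 87 of the 270 sites with a UVC peak scored above 100 (32.2%), against 13 of the 810 without one (1.60%). In the list without UV these were 17 of 415 (4.10%) and 9 of 1926 (0.467%). This split uses the overlap that chose the sites, so it is a description and no finding. Control sites with a UVC peak also had higher median scores, 34 against 17 in the YFP list and 22 against 17 in the list without UV. The UVA shares here were not weighted for score.

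The UVA and iCLIP lists have control positions of their own. Of 537 UVA sites on a control peak, 302 also lay on one of the 631 UVC sites (56.2%, interval 51.9 to 60.5), and of 244 iCLIP sites on a control peak 116 did (47.5%, interval 41.1 to 54.0). Over the whole lists, 343 of 70110 UVA sites and 138 of 52446 iCLIP sites lay on one of the 631. The 631 lie on control peaks by the rule, so these higher shares are a description and no finding.

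By chromosome, the sites on control peaks made up a larger share on X, 19, 17, 11 and 12 than the other sites did. Chromosome X held 47 of the 631 (7.45%) against 3.10% of the others, a ratio of 2.40 (interval 1.82 to 3.17). Of these 47, 23 lay in a single stretch of 11.7 kb, and without that stretch the shares were 3.95% (24 of 608) and 3.08%, a ratio of 1.28 whose interval held 1 (0.864 to 1.90). Chromosome 19 held 48 (7.61% against 4.17%, ratio 1.82, interval 1.39 to 2.40), of which 39 were on the list without UV only and none on both controls. The ratio was lowest on chromosomes 8 (0.504, interval 0.288 to 0.884), 4 (0.548, interval 0.338 to 0.890) and 10 (0.573, interval 0.358 to 0.917). Chromosomes were ranked after their values were seen.

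Most sites stood alone. When sites on 1 strand no more than 10 kb apart were joined into chains, 434 of the 631 were alone, 59 chains were pairs and 17 held 3 or more sites, 79 sites between them. The longest, chrX:73059026-73070726 on the minus strand, was the stretch with 23 sites. The next held 6 (chr17:7468065-7482320, plus), 5 (chr11:65269694-65273441, plus) and 4 each (chr11:93463750-93468403, chr19:3976438-3984215 and chr20:37053878-37062644, all minus).

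Within the longest chain the PTB UVC list was strong whether or not a control peak was present. Its 41 UVC sites comprised the 23 on control peaks, with a median score of 338 and a range of 113 to 1000, and 18 on none, with a median of 246.5 and a range of 144 to 384. The same stretch held 46 UVA sites with scores of 291 to 1000, of which 30 were at the limit. It held 22 sites without UV with scores of 13 to 64 and 16 YFP sites with scores of 15 to 85. The iCLIP list had 3 sites there, all at the limit of 1000. The stretch was thus dense in every GoldCLIP list and held few but strong iCLIP sites. A UVA peak lay on 16 of the 23 sites and on 9 of the 18, and an iCLIP peak on 2 and 0 of them.

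**Figure D5:**
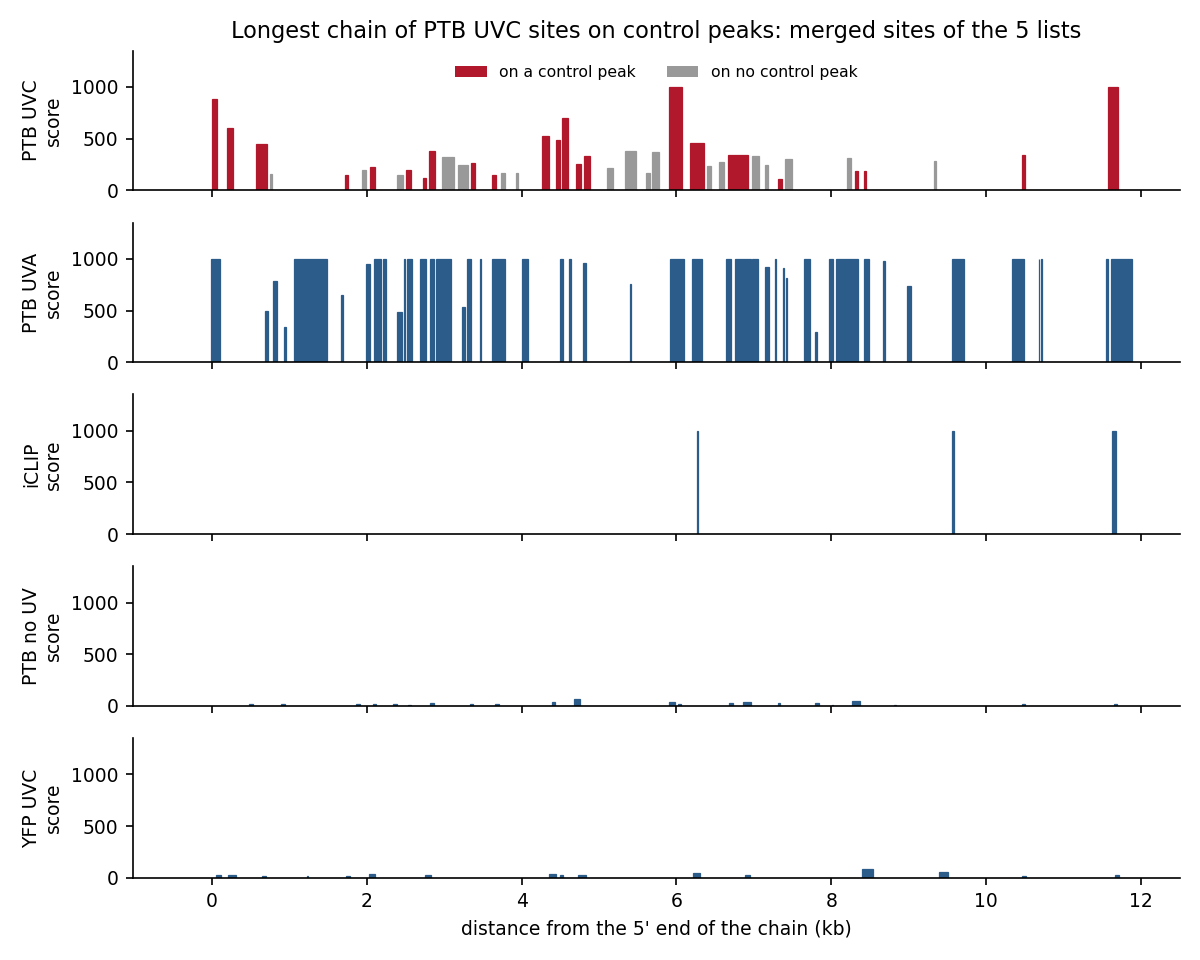
Merged sites of the 5 lists along the longest chain, read 5′ to 3′ on the minus strand (x axis, distance from the chain's 5′ end in kb), with the score as bar height (y axis, 0 to 1000) and the site's width as bar width. The UVC panel shows the 23 sites on a control peak in red and the 18 on none in grey; 30 of the 46 UVA sites reach 1000, the control sites stay at or below 85, and iCLIP has 3 sites.

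Other chains differed from it. On chromosome 20 all 4 UVC sites of the chain lay on a control peak, with scores of 525 to 1000, 3 of them on the YFP list only, and 3 lay on a UVA peak and none on an iCLIP peak. On chromosome 19 the 4 sites scored 91 to 274 and lay on the list without UV only, and the 6 UVC sites among them on no control peak had a median of 166.5. On chromosome 11, from 65269694 to 65273441, the 5 sites had a median score of 99 and the 10 others in the same span a median of 158, with a highest score of 792 that was above the 657 of the sites on control peaks. A position on a control peak was thus not always the strongest in its neighbourhood.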

How the data were processed

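The 5 deposited peak lists have 10 columns, no header and 1 list per group, so replicates were pooled or merged before deposit. Per the submitters' processing notes, Bowtie 1.1.2 was used, and the notes name hg19 beside dm3, whose role is unknown; the peak caller was not given in the sources used here. Positions were read as hg19, since 22 UVA, 8 iCLIP and 1 UVC peaks on chromosome 1 lie past its last gene in GRCh38, and are given 1-based. No deposited p-value exceeded 0.05, and 148 UVC peaks whose deposited p-value and score both read 0 were set to the limit of 1000. Such peaks in the other 4 lists were set to 1000 in the same way, and their number is not given here. All other deposited scores were used as given. Overlaps were counted with Python 3.11.15, numpy 2.4.6, pandas 2.3.3 and scipy 1.17.1, gave the same counts as bedtools 2.31.1 for all 4 lists set against the UVC sites, and were tested on simulated data with known overlaps. Figures used matplotlib 3.10.9.

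The sites named are the 5 with the highest UVC score in each set, ties by width and then position, and the 10 widest present in all 5 lists. Gene lists and RNA classes planned for these sites were not used, because positions were not matched to genes. The sites and all lists were chosen with earlier results of these data known, and the score bands, distance classes, end comparisons and chains after the data had been seen. No p-value was computed.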

Additional observations from a re-analysis of the deposited data

How the results depend on the processing

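Over single peaks in place of merged sites, the share on a control was 1.01%, with 22.2% of those on both controls, and the differences from the other peaks were 36.7 points for UVA and 53.3 points for scores above 100. The share on a control was 0.570% when control peaks had to cover 50% of a site, 1.29% among sites at or above the median score, 0.564% with control peaks at or above their list's median score, 0.518% with the list without UV alone and 0.348% with the YFP list alone. The difference in scores above 100 was 48.4 points for sites at or above the median score, 48.5 points for the stronger control peaks and 52.7 points for the YFP list alone. When the second list had to cover 50% of a site the differences were 26.2 points for UVA and 7.89 points for iCLIP, and the YFP list alone gave 21.3 points for iCLIP. With the other sites weighted by width they were 24.6 and 7.12 points, by score 14.1 and -0.156 points, and by both 10.6 and -1.82 points, so the iCLIP difference changed sign. Among sites scoring above 100 and on a UVA peak, the iCLIP difference was -7.66 points, and 2.51 points with the YFP list alone, where the cause was not tested; its interval held 0 in 6 of 11 alternatives. The UVA difference was above 0 in all 15 alternatives, and the iCLIP difference in 13 of 15. No paired analysis was possible because each group has 1 pooled list with no replicate columns, and no replicate could be left out for the same reason. The share in small noncoding RNA genes was not run, since no hg19 annotation was used here. Depth is unknown, so a site missing from a list may lie below what that list could detect.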
